A study of Mus musculus with 6 samples.

Results

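The 9 genes described here encode the core of hepatic very-low-density lipoprotein (VLDL) assembly and the apolipoproteins that triglyceride-rich particles carry in plasma: Apob, Mttp, Apoe, Apoc1, Apoc2, Apoc3, Apoc4, Apoa4 and Apoa5. They were chosen by symbol for this role, by a rule that uses no measured value, though with earlier results of these data known. Each of the 9 had a row of its own among the 29981 rows of the deposited table, and all 9 passed the filter on low values, a mean of at least 10 normalized reads, which left 2750 rows for testing. The livers came from C57BL/6 mice with an Albumin-Cre deletion of Abca1, the exporter of cholesterol and phospholipid to lipid-poor apolipoprotein A-I, in hepatocytes (HSKO, 3 samples) and from floxed controls that the sample labels call wildtype (WT, 3 samples). The Albumin promoter drives Cre in hepatocytes, and whether other liver cells of these mice keep Abca1 was not tested. Mice of both groups had no food between 9 am and 1 pm before the liver was taken. Neither age nor sex is given in the sources used here, and nothing in the labels says that each sample is a separate animal, so the p-values reflect sample-to-sample spread alone.

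The hepatocyte builds VLDL around a single large protein, apolipoprotein B. The microsomal triglyceride transfer protein, a dimer of the Mttp product and a protein disulfide isomerase, loads lipid onto it in the endoplasmic reticulum. In plasma the particle carries small exchangeable apolipoproteins that govern how fast its triglyceride is hydrolysed and how its remnants return to the liver.

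The libraries were shallow, with 838637 to 933319 reads in WT and 631020 to 702013 in HSKO. Every HSKO library was thus shallower than every WT library, and the part of depth in the results was not tested. A single row, BC071253, took 43.1% to 57.8% of the reads. Between 10037 and 11918 reads of each WT library, and between 4346 and 5720 of each HSKO library, fell on the 9 genes. Values are reads over the size factor of their library, as deposited, and are called normalized reads below. Size factors were 1.31 to 1.77 in WT and 0.684 to 0.752 in HSKO. A log2 fold change is the HSKO mean less the WT mean of log2(normalized reads + 1), a scale that understates changes of low genes. Abca1 was at 15.3, 23.7 and 19.2 normalized reads in WT and 2.92, 1.45 and 2.66 in HSKO, so each library matched its label, from 1 or 2 reads in each HSKO library. Of 15 hepatocyte markers, 6 were lower in HSKO and 0 higher, with a median log2 fold change of -0.58. Among all rows tested, 11.6% were called lower and 28.5% higher. Summed, the hepatocyte markers came to 13130 to 15997 normalized reads in WT and 8067 to 11701 in HSKO. Sums of 7 stellate markers (38.4 to 39.7 against 14.6 to 29.1) were lower too, from 10 to 20 reads in each HSKO library. The groups were apart for 2 of the 7, and only Dcn passed the filter (means of 19.5 in WT and 7.07 in HSKO). Sums of endothelial, cholangiocyte, macrophage and blood cell markers overlapped, and the part of other cells in the results was not tested. In bulk liver RNA, fewer hepatocytes and less of these RNAs per hepatocyte cannot be told apart.

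The stretches upstream of Apob, Apoa5 and Apoe are shown because the first 2 genes were lower in HSKO while Apoe, the most abundant of the set, was not. They are from RefSeq on GRCm38.p6, are written 5′ to 3′ on the strand of the gene, and end before the first annotated exon. Capitals mark TATAAA, the TATA box. The Apob stretch is chr12:7977427-7977647 on the plus strand, the Apoa5 stretch chr9:46268358-46268607 on the plus strand and the Apoe stretch chr7:19699189-19699438 on the minus strand.
Apob: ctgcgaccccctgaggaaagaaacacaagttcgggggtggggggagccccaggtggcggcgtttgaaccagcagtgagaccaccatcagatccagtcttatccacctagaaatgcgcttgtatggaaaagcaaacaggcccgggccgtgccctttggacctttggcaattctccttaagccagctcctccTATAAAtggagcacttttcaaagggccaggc
Apoa5: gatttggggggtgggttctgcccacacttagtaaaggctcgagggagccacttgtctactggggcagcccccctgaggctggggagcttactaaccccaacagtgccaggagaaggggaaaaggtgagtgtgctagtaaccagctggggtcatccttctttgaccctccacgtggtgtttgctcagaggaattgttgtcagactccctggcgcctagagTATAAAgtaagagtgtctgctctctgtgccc
Apoe: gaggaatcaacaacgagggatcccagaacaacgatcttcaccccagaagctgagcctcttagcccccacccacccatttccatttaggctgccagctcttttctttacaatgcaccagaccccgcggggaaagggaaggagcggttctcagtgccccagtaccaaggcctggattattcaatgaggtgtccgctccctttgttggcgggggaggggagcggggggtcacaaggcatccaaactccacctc
TATAAA began 31 bases before the RefSeq start of Apoa5. In Apob it began 31 bases before the end of the stretch, which stops 29 bases short of the RefSeq start because an annotated exon begins there. Over all 32817 RefSeq windows of the 250 bases before a start, 12.4% hold TATAAA on either strand. The letters CCAAT (in 33.8% of the windows), TGTTTAC, a FOXO core (3.16%), and CAAAGGTCA and CAAAGTCCA, forms of the HNF4 site (0.427% and 0.384%), were searched on both strands as well and are not in these 3 stretches. Only these exact letters were searched, so the stretches may hold other forms of the sites. The stretch of Apoc4, a gene that was not called, holds CCAAT and is not shown. Apoc1 and Apoc3 had no window, those of Mttp and Apoa4 lie within annotated exons, and that of Apoc2 starts within one. The stretches shown were picked by their results, so TATAAA in them cannot be set against the calls. The part of these letters in the results was not tested.

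Of the 9 genes, 4 were lower in HSKO livers at a limma adjusted p below 0.05 and 0 were higher. The 4 were Apob, Mttp, Apoc1 and Apoa5, lower by 1.60 to 1.83 times. Over all 2750 rows tested, 11.6% were called lower and 28.5% higher, 40.1% in all. The members had a median log2 fold change of -0.65, and the median of all rows tested was 0.07. For 5 of the 9, the 4 above and Apoc3, the highest HSKO library lay below the lowest WT library, which held for 20.1% of the rows tested, with 51.5% apart in either direction. At an unadjusted p below 0.05 limma had 5 members lower and 0 higher, where 17.2% of all rows were lower and 32.1% higher. At an adjusted p below 0.05 edgeR called 5 members lower and 21.9% of all rows, and DESeq2 3 members and 6.62% of all rows, with 0 members higher in both.

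**Figure D1:**
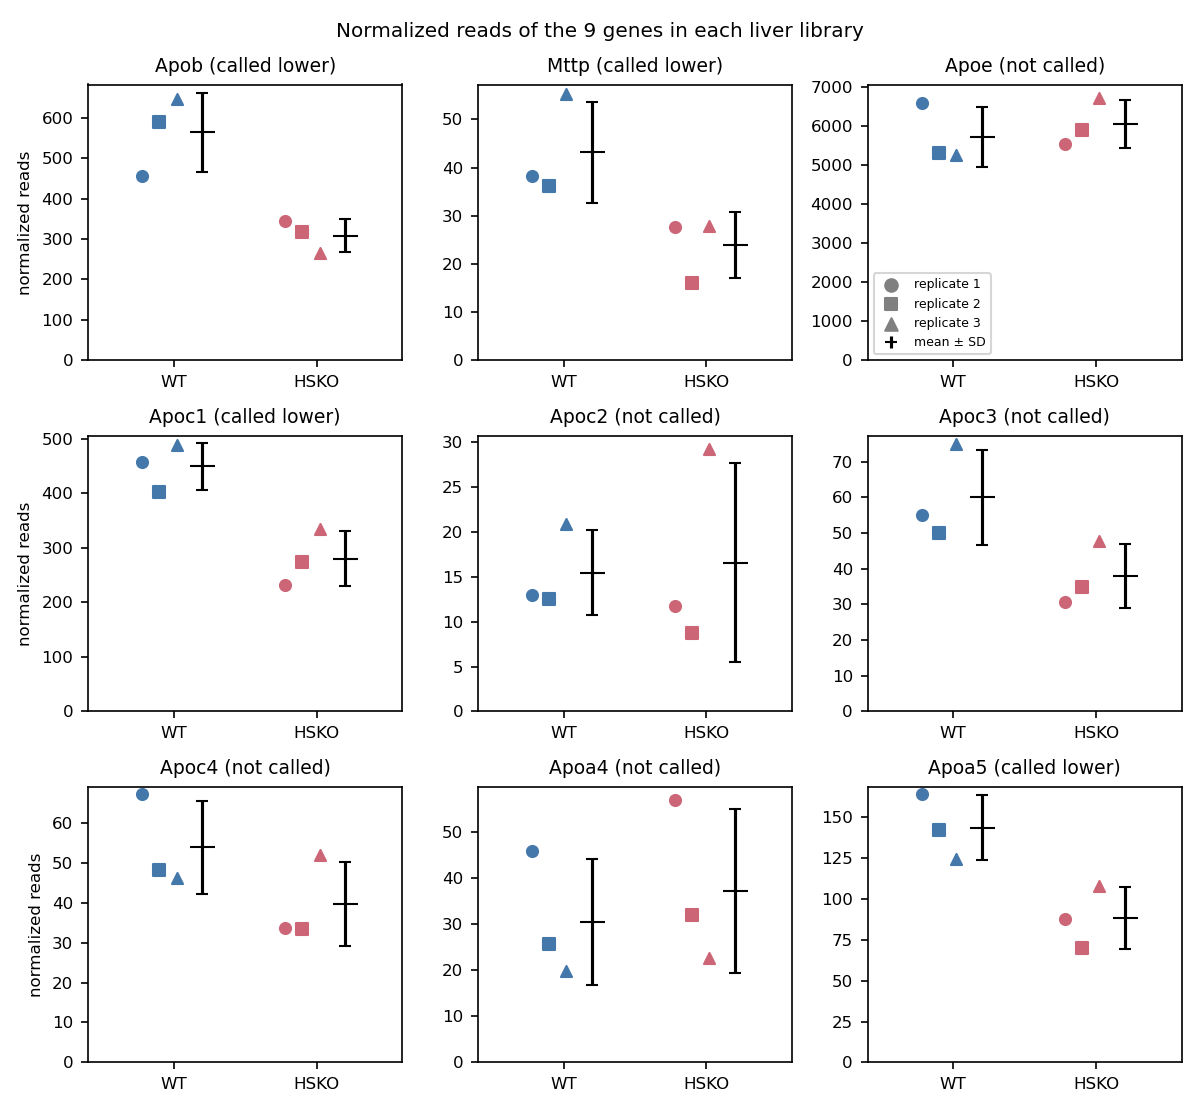
Normalized reads (vertical axes, each from 0) of the 9 genes in the 3 WT libraries (blue) and 3 HSKO libraries (red), with the mean and SD of each group in black and a marker shape per replicate number. The groups are apart for Apob, Mttp, Apoc1, Apoc3 and Apoa5 and overlap for Apoe, Apoc2, Apoc4 and Apoa4.

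Apob, which encodes the structural protein of the particle, lies on chromosome 12 from 7977648 to 8016835 (mm10) and has 29 exons. It was at 456, 590 and 646 normalized reads in WT and 343, 317 and 265 in HSKO. All 3 HSKO libraries were below all 3 WT libraries, and the level was 1.83 times lower in HSKO (564 ± 97.6 against 308 ± 40.1, SD, n = 3, log2 fold change -0.86, SE 0.23, limma adjusted p = 0.00658). These values rest on 598, 897 and 1146 reads in WT and 235, 218 and 199 in HSKO. The call was lost only when libraries were scaled to the hepatocyte markers (log2 fold change -0.47, limma adjusted p = 0.231), and adjusted p was between 5.15e-05 and 0.0391 in the other 19 alternatives.

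Mttp, the lipid-loading subunit, lies on chromosome 3 from 138089854 to 138144968 on the minus strand. Its level was 38.2, 36.2 and 55.3 normalized reads in WT and 27.8, 16.0 and 27.9 in HSKO. The groups did not overlap, with HSKO replicate 2 the lowest and WT replicate 3 the highest of the 6. The log2 fold change was -0.84 (SE 0.29, limma adjusted p = 0.0271), close to that of Apob. Reads were few, at 50, 55 and 98 in WT and 19, 11 and 21 in HSKO. The gene overlaps Trmt10a on the opposite strand, and as no source used here gives the strand setting of the counting, reads of the overlap cannot be assigned with certainty.

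P4hb, the disulfide isomerase that is the partner subunit of the transfer protein, was lower with a similar size. Its row, which also names a second transcript, was at 190, 179 and 179 normalized reads in WT and 105, 98.9 and 95.7 in HSKO (log2 fold change -0.86, SE 0.22, limma adjusted p = 0.00527). Within each library, the log2 ratio of Mttp to Apob averaged -3.69 ± 0.263 over the WT and -3.67 ± 0.519 over the HSKO libraries (SD, n = 3), a difference of 0.02 (two-sided exact permutation p = 1). The ratio, taken on normalized reads + 1, thus differed by less than its spread between libraries in the deposited scaling. Under quantile normalization, run on ratios after the data were seen, the difference was 0.34, above the WT spread.

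Apoc1, a small apolipoprotein that hinders remnant uptake, was at 458, 403 and 488 normalized reads in WT and 232, 275 and 334 in HSKO. Every HSKO library was below every WT library (log2 fold change -0.69, SE 0.23, limma adjusted p = 0.0225). Apoa5, which promotes hydrolysis of plasma triglyceride and is made almost only in liver, was at 164, 142 and 125 in WT and 87.7, 69.8 and 108 in HSKO. The HSKO libraries again lay below the WT libraries, with the nearest pair at 108 and 125 (log2 fold change -0.71, SE 0.25, limma adjusted p = 0.0281). The gene also overlaps an annotated antisense transcript.

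Apoc3, an inhibitor of triglyceride hydrolysis and of remnant clearance, was at 54.9, 50.01 and 75.0 normalized reads in WT and 30.7, 34.9 and 47.9 in HSKO. The groups were apart, by 47.9 against 50.01, and the difference did not pass (log2 fold change -0.65, SE 0.27, limma adjusted p = 0.0580). Apoc4, a minor apolipoprotein, was at 67.2, 48.0 and 46.2 in WT and 33.6, 33.4 and 51.9 in HSKO. The third HSKO replicate lay within the WT range, and the gene was not called (log2 fold change -0.44, SE 0.27, limma adjusted p = 0.198). Both genes crossed the threshold downward with other scalings, Apoc3 in 5 and Apoc4 in 4 of the 7 compared below.

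Apoc2, the activating cofactor of triglyceride hydrolysis, was close to the limit of this depth. It was at 13.0, 12.5 and 20.9 normalized reads in WT and 11.7, 8.72 and 29.3 in HSKO, from 17, 19 and 37 reads and from 8, 6 and 22 reads. The highest and the lowest of the 6 values were both HSKO libraries (log2 fold change -0.05, SE 0.39, limma adjusted p = 0.929).

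Apoa4, an apolipoprotein made in the intestine and, in mice, also in liver, was at 45.8, 25.7 and 19.7 normalized reads in WT and 57.0, 32.0 and 22.6 in HSKO. The values of each group spanned more than the distance between the group means (log2 fold change 0.27, SE 0.34, limma adjusted p = 0.545). Of 7 enterocyte markers, 6 had 0 reads in all 6 libraries (Vil1, Sis, Lct, Cdh17, Alpi and Krt20). The remaining one, Fabp2, had a mean of 13.8 ± 3.42 normalized reads in WT against 2.79 ± 1.27 in HSKO (SD, n = 3), below the filter over all libraries.

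Apoe, the ligand that returns remnants to hepatic receptors, was by far the most abundant of the set and did not pass the test. It was at 6596, 5297 and 5245 normalized reads in WT and 5528, 5904 and 6721 in HSKO, from 3782 to 9300 reads. The groups overlapped throughout (5713 ± 765 against 6051 ± 610, SD, n = 3, log2 fold change 0.09, SE 0.25, limma adjusted p = 0.798). Its direction depended on the scaling, from -0.59 with total reads to 0.48 with hepatocyte markers. It was called lower by limma with total reads (adjusted p = 0.0214) and with quantile normalization (0.00289). Macrophages also make Apoe. The 10 macrophage markers, none at 0 in all libraries, summed to 45.0 to 80.3 normalized reads in WT and 40.9 to 59.8 in HSKO, and the part of these cells in the Apoe value was not tested.

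Apoe was also set against the other members within each library. Apoe held 83.6%, 80.2% and 78.0% of the reads of the 9 genes in WT and 87.0%, 88.2% and 88.4% in HSKO. The HSKO shares were all above the WT shares (two-sided exact permutation p = 0.1, the lowest value possible with 3 samples a group), and exact 95% binomial bounds lay within 1.04 percentage points of each share, for counting error only. These shares are of reads and use no size factor. The log2 ratio of Apoe to Apob was 3.85, 3.16 and 3.02 in WT and 4.004, 4.21 and 4.66 in HSKO, 1.93 times higher in HSKO. The groups did not overlap (exact permutation p = 0.1, adjusted p = 0.533 over the 8 ratios to Apob), and the difference of 0.95 on the log2 scale was 0.84 under quantile normalization. Apob had the lowest log2 fold change of the 9 genes (-0.86), so all 8 ratios to it rose on average. Apoe was at 0.09 and the median of all rows at 0.07, so such a rise over Apob is not particular to Apoe. How many rows rose over Apob without overlap was not counted. The Apoe share likewise depends on the fall of other members. The other 7 ratios to Apob overlapped between the groups, with exact p from 0.2 to 1. The differences of Mttp, Apoc1, Apoc3 and Apoa5 were 0.02, 0.17, 0.21 and 0.16 on the log2 scale, each below the SD of the ratio within either group. Under quantile normalization they were 0.34, 0.09, 0.46 and 0.29.

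**Figure D2:**
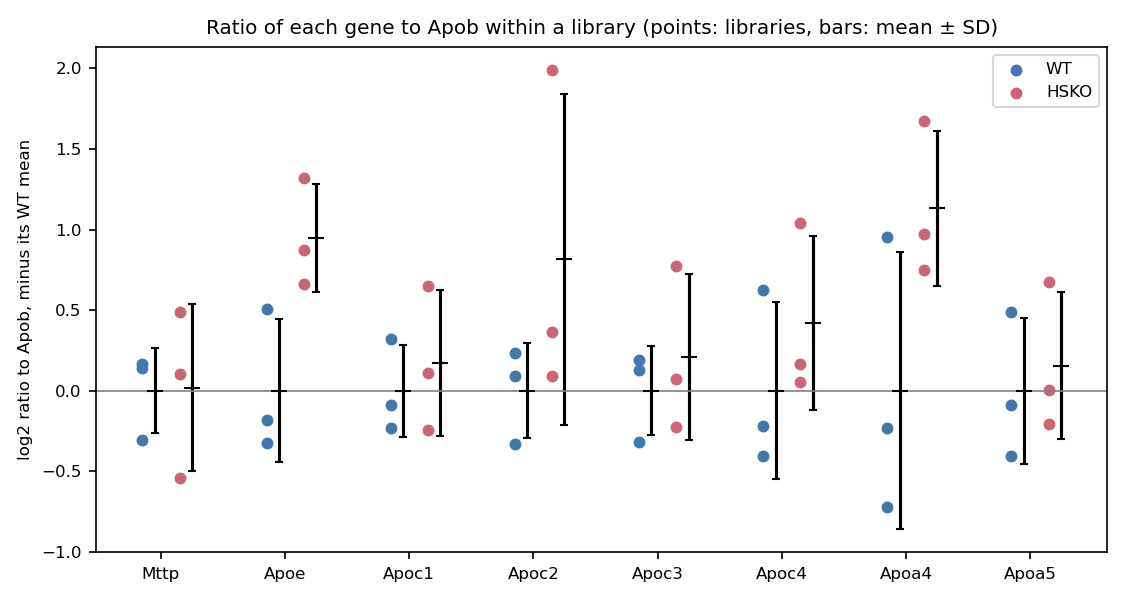
Log2 ratio of each gene to Apob within a library, with the WT mean of the gene set to 0 (vertical axis), for WT (blue) and HSKO (red) libraries, with mean and SD in black. Only for Apoe do all 3 HSKO points lie above all 3 WT points.

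The HSKO libraries differed among themselves. In HSKO replicate 3, 7 of the 9 genes had the highest value of their group, all but Apob and Apoa4, while Apob had its lowest. Its hepatocyte marker sum was the highest of the HSKO libraries, at 11701. Without that library, 5 of the 9 genes were called lower, with Apoc3 added (limma adjusted p = 0.0279), as were 10.8% of all rows. Without HSKO replicate 2 Apob alone was, with 8.76% of all rows. Without HSKO replicate 1, or without WT replicate 2, 2 genes were called, Apob and Mttp, with 9.45% and 5.68% of all rows lower. The WT libraries differed too. WT replicate 1 had the WT maximum of Apoe, Apoc4, Apoa4 and Apoa5 and the WT minimum of Apob. Its Saa1 was at 232 normalized reads, against 15.8 and 7.33 in WT replicates 2 and 3. Without WT replicate 1, 3 genes were called lower, Apob, Mttp and Apoc1, with 315 of 2745 rows.

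Of the 9 genes, 7 lie in a pair of clusters. Apoc2, Apoc4, Apoc1 and Apoe lie in this order within 27.61 kb of chromosome 7 (19671579 to 19699188), all on the minus strand. Apoc3, Apoa4 and Apoa5 lie within 38.987 kb of chromosome 9 (46232933 to 46271919), next to Apoa1. In each cluster 1 gene was called lower, Apoc1 and Apoa5, and the others were not. Apoc1 and Apoe are 3448 bp apart, and the log2 ratio of Apoc1 to Apoe was -3.85, -3.71 and -3.42 in WT and -4.57, -4.42 and -4.33 in HSKO. This ratio was 1.71 times lower in HSKO without overlap, and between -0.87 and -0.66 on the log2 scale with any library left out (exact permutation p = 0.1, adjusted p = 0.25 over 5 neighbour ratios chosen after the values were seen). The ratio of Apoc4 to Apoe did not overlap either, 1.44 times lower in HSKO, and those of Apoc2 to Apoe and of Apoa5 and Apoa4 to Apoc3 overlapped. Apoc2 and Apoc4 are 141 bp apart and both overlap Gm44805, annotated on the same strand, so the assignment of their reads is uncertain.

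Of 10 listed neighbours of these clusters, only Clptm1 and Sik3 passed the filter. Clptm1 had a mean of 12.3 ± 2.99 in WT against 12.1 ± 5.02 in HSKO (SD, n = 3, limma adjusted p = 0.880). Sik3, a kinase gene beside the chromosome 9 cluster, was higher at 42.4, 59.6 and 26.6 normalized reads in HSKO against 17.6, 17.1 and 18.0 in WT (log2 fold change 1.17, SE 0.30, limma adjusted p = 0.00480). Its reads numbered 23, 26 and 32 in WT and 29, 41 and 20 in HSKO, and with scaling to total reads the change was 0.52 (adjusted p = 0.175). Apoa1, the main protein of high-density lipoprotein and the next gene to Apoc3, was at 2296, 1901 and 1882 in WT and 1606, 1794 and 2625 in HSKO. Its groups overlapped (log2 fold change -0.04, SE 0.25, limma adjusted p = 0.908), and the change was 0.36 with hepatocyte markers. Apoa1 was called lower with total reads (-0.72, limma adjusted p = 0.0137), also leaving out BC071253 (-0.53, 0.0359), and with quantile normalization (-0.81, 0.00152).

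Levels of different genes were compared per kilobase of the principal annotated transcript. Apoe led with 4057 ± 544 normalized reads per kb in WT, 4.80 times Apoc1 at 846 ± 81.0 (SD, n = 3). Apoc3 and Apoc4 followed at 114 ± 25.2 and 100.03 ± 21.5 and overlapped in both groups. Apoa5 was at 57.1 ± 7.86 and Apob, whose transcript is 13.934 kb long, at 40.5 ± 7.01, with no overlap between them in WT. Apoc2, Apoa4 and Mttp were lowest, at 21.2 ± 6.46, 16.7 ± 7.52 and 10.9 ± 2.65, and each overlapped the next in WT. In HSKO the order of Apoc3 and Apoc4 and that of Apob and Apoc2 were exchanged, in each case between genes whose HSKO values overlapped.

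**Figure D3:**
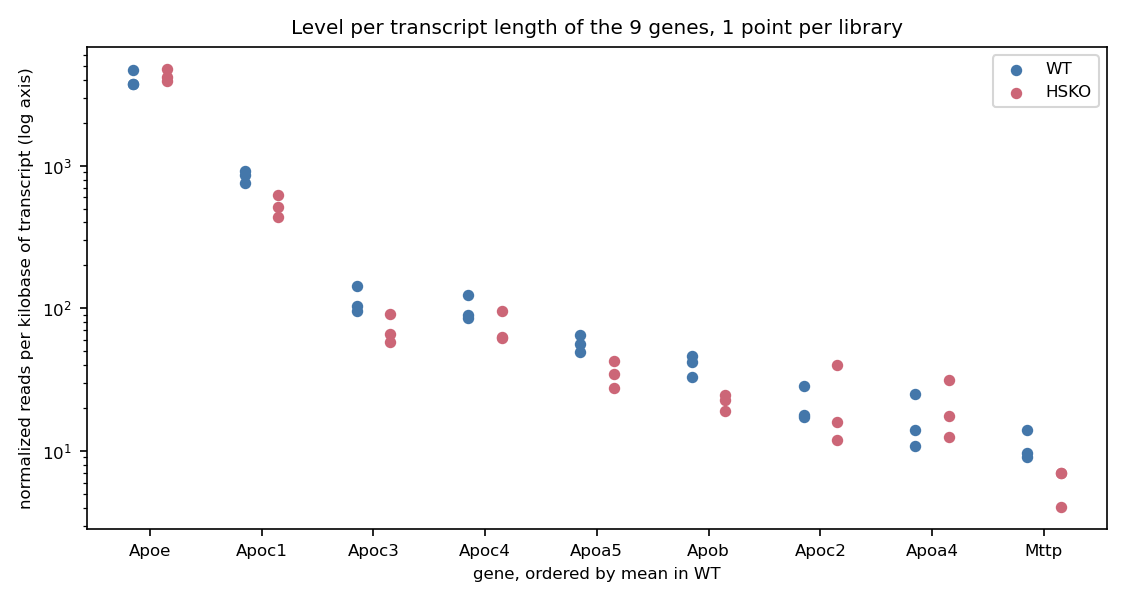
Normalized reads per kilobase of transcript (log axis) of the 9 genes, ordered by their WT mean, with 1 point per WT (blue) or HSKO (red) library. Apoe and Apoc1 stand above the rest in both groups, and Mttp is lowest in both.

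How many of the 9 genes were called depended on how libraries were scaled. With the deposited scaling 4 were lower and with edgeR and TMM 5. Upper quartile scaling gave 6, where 25.6% of all rows were lower, and quantile normalization 7, where 18.3% were. Total reads gave 7, where 38.0% of all rows were lower, and scaling to 15 hepatocyte markers gave 0, where 2.04% were. With total reads leaving out BC071253, a scaling chosen after the data were seen, 6 members and 33.2% of all rows were lower. None was called higher in these 7 scalings. Apob, Mttp, Apoc1 and Apoa5 were lower in 6 of the 7, all but the hepatocyte marker scaling, in which their log2 fold changes were -0.47, -0.46, -0.30 and -0.32. These 4 genes, Apoc3 and Apoc4 were below 0 in all 7. The median log2 fold change of the members was -0.27 with hepatocyte markers and -1.32 with total reads, where the median of all rows was 0.45 and -0.57. Relative to the deposited scaling the median of all rows shifted by 0.37 and -0.64 with these 2 scalings, by -0.28 with upper quartile, -0.20 with TMM and -0.47 with total reads leaving out BC071253. In each scaling, 7 or 8 of the 9 genes lay below the median of all rows. A factor per library shifts the members and that median nearly alike. Except under quantile normalization this count could thus hardly change, and it is no sign of stability.

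**Figure D4:**
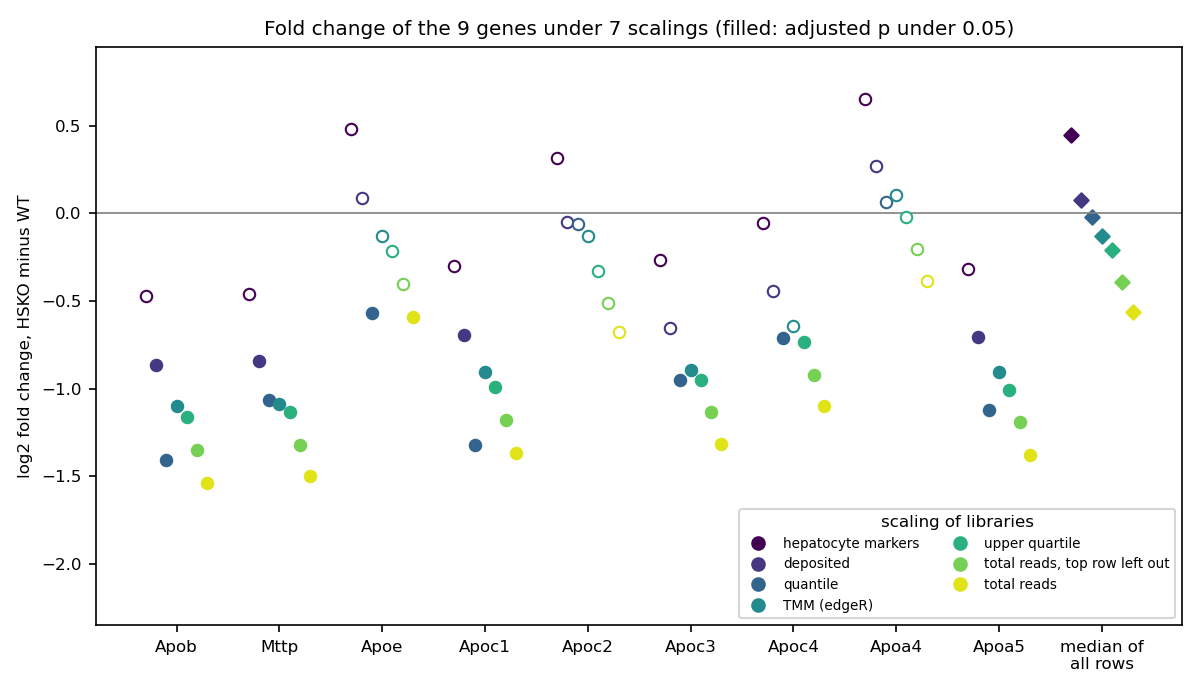
Log2 fold change (HSKO minus WT, vertical axis) of the 9 genes under 7 scalings of the libraries, coloured by scaling, with filled circles at an adjusted p below 0.05, and diamonds for the median of all 2750 rows. Each of the 9 genes is highest with hepatocyte markers and lowest with total reads. With quantile normalization Apob is at -1.41 and Apoe at -0.57 while the median of all rows is at -0.02.

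The other genes of the pathway were taken from lists by role. Beside the counts of each list stand the shares of all rows tested, 11.6% called lower and 28.5% higher. Among 8 tested genes of apolipoprotein B lipidation and export, 2 were lower and 0 higher (median log2 fold change -0.69, where the median of all rows was 0.07). Besides P4hb, this was Ces1d, a carboxylesterase that mobilises stored triglyceride for VLDL, at 39.7, 60.5 and 79.0 normalized reads in WT and 10.2, 18.9 and 18.6 in HSKO. Ces1d had the largest fall of the pathway genes tested (log2 fold change -1.84, SE 0.31, limma adjusted p = 0.000652) and was lower in all alternatives that gave a value. Of the genes not called, Sar1b, Mia2 and Mia3, which help large cargo leave the endoplasmic reticulum, were named after their values were seen and had log2 fold changes of -0.63, -0.85 and -0.60 and did not pass (limma adjusted p = 0.132, 0.0608 and 0.0781). Tm6sf2, which acts in VLDL lipidation, had 0, 1 and 3 reads in WT and 0 in each HSKO library, too few to detect a difference. A1cf, the cofactor of Apob mRNA editing, was lower at 9.51 ± 2.59 against 23.3 ± 7.34 (SD, n = 3, limma adjusted p = 0.00958) and was the 1 tested gene of the 3 listed for editing.

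Among regulators of plasma lipases, 1 of 6 tested genes was lower and 0 higher (median -0.49). It was Creb3l3, a hepatic transcription factor of triglyceride-lowering apolipoproteins, at 83.9, 52.6 and 67.7 normalized reads in WT and 51.2, 21.8 and 46.5 in HSKO (limma adjusted p = 0.0394). Hepatic lipase, Lipc, was at 15.7 ± 5.02 and 8.93 ± 1.47 (SD, n = 3, limma adjusted p = 0.136). Of the remnant receptors and uptake genes, 2 of 4 tested were lower (median -0.78). One of them, Lrp1, a remnant receptor, was at 83.9, 86.9 and 75.6 in WT and 55.5, 61.1 and 29.3 in HSKO (limma adjusted p = 0.0273). Without the third HSKO replicate, the lowest, Lrp1 was not called (limma adjusted p = 0.150).

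Among transcription factors known to act on these genes, 2 of 4 tested were lower and 0 higher (median -0.53). Ppara, the fatty acid sensor, was at 39.7, 42.1 and 45.1 normalized reads in WT and 17.5, 14.5 and 26.6 in HSKO (log2 fold change -1.12, SE 0.28, limma adjusted p = 0.00429), and Onecut1, in a row that names a second transcript, fell by 0.99 on the log2 scale (limma adjusted p = 0.0254). Hnf4a, which binds many apolipoprotein genes, was at 64.9, 73.7 and 71.1 in WT and 80.4, 61.1 and 61.2 in HSKO (limma adjusted p = 0.861). Of 10 other tested genes of plasma apolipoproteins and transfer proteins, 2 were lower and 0 higher (median -0.45). They were Apoa2 and Apom, proteins of high-density lipoprotein, with means of 658 ± 90.8 and 23.2 ± 1.92 in WT against 411 ± 94.8 and 11.7 ± 1.56 in HSKO (SD, n = 3, limma adjusted p = 0.0265 and 0.0190). Leaving out 1 library ended the calls of 6 of the genes named here. Creb3l3 was not called without HSKO replicate 2 (limma adjusted p = 0.258), WT replicate 1 (0.118) or WT replicate 3 (0.0809). A1cf and Lrp1 were not called without WT replicate 2 (limma adjusted p = 0.0899 and 0.0906), nor Onecut1 without WT replicate 2 (0.184) or WT replicate 3 (0.0657). Apom was not called without WT replicate 3 (limma adjusted p = 0.0819), and Apoa2 without HSKO replicate 1 (0.142), HSKO replicate 2 (0.0895), WT replicate 2 (0.0716) or WT replicate 3 (0.0558). P4hb, Ces1d, Ppara and Sik3 kept their calls with any 1 library left out. In the 7 lists together, 10 of 35 tested genes were lower and 1 higher, where 11.6% of all rows were lower and 28.5% higher. With scaling to hepatocyte markers 1, Ces1d, was lower and 1, Sik3, higher, where 2.04% of all rows were lower.

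The rows whose profile over the 6 libraries was most like the mean centred profile of the 9 genes were Ambp, Apof, Proc, Rbp4 and Plin2. They had the highest Pearson correlations among 490 rows with a plain gene symbol and a mean of at least 50, from 0.95 for Plin2 to 0.97 for Ambp. Ambp, Apof, Proc and Rbp4 encode secreted plasma proteins of the liver, and Plin2 coats lipid droplets. Ambp was at 393, 301 and 351 normalized reads in WT and 231, 218 and 275 in HSKO, and Rbp4 at 237, 231 and 276 against 181, 153 and 194. All of these values share the libraries and their size factors with the 9 genes, so the likeness is a description over 6 points.

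Beyond Apob, the calls of the members were less stable. That of Mttp was lost without HSKO replicate 2 (limma adjusted p = 0.143) or WT replicate 3 (0.136) and in DESeq2 (0.0688). Apoc1 was not called without HSKO replicate 1 (0.107), HSKO replicate 2 (0.0825) or WT replicate 2 (0.0504). That of Apoa5 was lost without HSKO replicate 1 (0.0664), HSKO replicate 2 (0.150), WT replicate 1 (0.0681) or WT replicate 2 (0.0859). With no filter on low values these 3 were not called (limma adjusted p = 0.0884, 0.0692 and 0.0752), and without a variance trend Apoc1 and Apoa5 were not (0.0605 and 0.0629).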

How the data were processed

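RNA of 6 mouse liver samples was sequenced from both ends after a stranded mRNA library preparation, per the labels' protocols. The authors deposited a normalized signal for each gene row in each library: reads over that library's size factor. In the submitters' processing notes stand FastQC 0.11.3, Bowtie, RSEM 1.2.9, DESeq 1.16.0 and mm10. No source used here gives the annotation or strand setting. Every value was a whole multiple of 1 read within a tolerance of 0.001 (100% of values), so reads were recovered.

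limma 3.58.1 (R 4.3.3) with a mean-variance trend was fitted on log2(value + 1) over 2750 rows with a mean of at least 10, 2-sided, with Benjamini-Hochberg adjustment over all rows at 0.05. edgeR 4.0.16 quasi-likelihood and DESeq2 1.42.0 were run on recovered reads. Ratios within libraries were compared by exact permutation over samples. Coordinates and transcript lengths are from GENCODE M21. All 9 members are named, with up to 2 genes of smallest p per list, a few fixed genes and the 5 rows most alike. Some items are not reported here. Of the listed genes, 114 had their own row, 5 shared one with other genes and 4 matched by an older symbol, and 2 were not analysed here. The members and lists were chosen with earlier results of these data known. On simulated data for the comparison of HSKO with WT over 2737 genes, limma recovered 42 of 92 genes given a 2-fold change and 83 of 84 given a 4-fold change. Of its 129 calls there, 4 were of unchanged genes. The simulation had a common dispersion, the deposited size factors and as many rises as falls. In the data 783 rows were called higher and 320 lower, so recovery there may differ. Intervals of shares cover counting error only.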

Additional observations from a re-analysis of the deposited data

How the results depend on the processing

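Beside the 4 members lower in the deposited scaling, the count was 1 with no filter, 2 without a trend, 7 with quantile normalization, 7 with total reads and 0 with hepatocyte markers, and 1 to 5 with a library left out. With a mean of at least 50, 3 of the 4 members tested were lower. Members called higher numbered 0 throughout. Rows called lower numbered 320 of 2750 in the main analysis. They numbered 118 of 688, a larger share, with a mean of at least 50 and 211 of 13807, a smaller share, with no filter. They numbered 182 in DESeq2, 601 in edgeR and 266 of 2750 without a trend. The number was 502 with quantile normalization, 56 with hepatocyte markers and 703 with upper quartile scaling. Total reads gave 1044 and total reads leaving out BC071253 gave 913. With a library left out 154 to 315 were lower (155 without WT replicate 2 and 154 without WT replicate 3). Rows called higher numbered 783 of 2750 in the main analysis and 391 of 688, a larger share, with a mean of at least 50. With no filter 624 of 13807 were higher, a smaller share. Rows called higher numbered 221 with total reads, 429 with total reads leaving out BC071253 and 583 to 832 with a library left out. Of the 35 tested pathway genes, 10 were lower and 1 higher in the main analysis. Those lower numbered 6 of 33 in DESeq2, 5 of 13 with a mean of at least 50 and 5 of 67 with no filter. They numbered 22 in edgeR, 18 with quantile normalization, 1 with hepatocyte markers and 21 with upper quartile scaling. Total reads gave 25, and 24 leaving out BC071253. Those higher numbered 0 with a mean of at least 50 and with both total read scalings. With a library left out, 6 to 12 were lower and 1 to 2 higher.

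Values near 0 changed sign. The log2 fold change of Apoe was -0.13 in edgeR, -0.57 with quantile normalization, -0.59 with total reads, -0.40 leaving out BC071253 and -0.22 with upper quartile scaling. That of Apoa4 was -0.39, -0.21 and -0.0231 in the last 3, and -0.0839 to 0.60 with a library left out, below 0 without HSKO replicate 1. That of Apoc2 was 0.10 in DESeq2, 0.32 with hepatocyte markers, and -0.53 to 0.29 with a library left out, above 0 without HSKO replicate 1, HSKO replicate 2 or WT replicate 3. With hepatocyte markers Apoa1, Clptm1 and Hnf4a were at 0.36, 0.28 and 0.33. With a library left out they ranged from -0.25 to 0.11, -0.36 to 0.21 and -0.19 to 0.00721. With a library left out, differences of ratios to Apob ranged from -0.22 to 0.30 for Mttp, 0.77 to 1.202 for Apoe, -0.0679 to 0.38 for Apoc1, 0.23 to 1.18 for Apoc2, -0.0758 to 0.42 for Apoc3, 0.11 to 0.73 for Apoc4, 0.77 to 1.61 for Apoa4 and -0.10 to 0.40 for Apoa5. The cause of these shifts was not tested, other than that fewer rows or samples enter some of them.

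The replicate number as a block (limma, 4 members lower, 269 rows lower and 751 higher) changed no call of a member, with Apob at an adjusted p of 0.0168. Deviations from the group means correlated at -0.03, -0.03 and -0.02 for same-numbered samples and at -0.03 to 0.05 for the others. Same-numbered samples were thus no more alike than the others, which cannot tell whether the samples were paired. Depth limits what can be seen for low genes such as Apoc2 and Tm6sf2.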
